A study of Ogataea parapolymorpha with 2 samples.

Results

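Zinc-dependent alcohol and polyol dehydrogenases of the methylotrophic yeast Ogataea parapolymorpha were followed in 2 RNA-seq libraries, and 12 of the 5408 features in the deposited table belong to them. A gene was taken as a member when the orthologous group (COG) listed for it was COG1064, the alcohol dehydrogenase type, with 6 genes, or COG1063, the threonine and sorbitol dehydrogenase type, also with 6 genes. The rule uses annotation only, but these groups were picked with their differences between the libraries already known, so that every value below is a description. What chose them was thus, in part, the log2 folds of caffeine-treated over untreated counts, and the members count as selected on those folds. The tables give locus tags and no gene symbols or product names, so that the members are called by their locus tags and the enzyme each encodes is not known.

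The strain was Hansenula polymorpha DL-1, as the labels name the species, with the genotype leu-, in both groups. A culture in rich glucose medium (YPD) at 37 °C was grown to an optical density of 1.0 and split. The part harvested without the drug is the untreated library, and the part given 20 mM caffeine for 2 h is the caffeine-treated library. Each group has 1 library, so that differences lack any replicate check and the conditions were not tested against each other. When the untreated part was harvested is not stated, and time in culture cannot be told apart from caffeine. The counted reads came to 19184978 in the untreated and 17789838 in the caffeine-treated library.

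These enzymes belong to the medium-chain dehydrogenases, which move hydride between an alcohol and NAD or NADP and, in the families meant here, hold zinc at the active site. In yeasts the alcohol dehydrogenases reduce acetaldehyde to ethanol at the end of fermentation, which returns NAD to glycolysis, and related isozymes run the reaction the other way when ethanol is used. The sorbitol type takes in polyol dehydrogenases, among them the xylitol dehydrogenases of xylose use, and in budding yeast also a butanediol dehydrogenase.

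All 12 members had a listed coding length between 1050 and 1149 bases, or 350 to 383 codons with the stop, and none was listed in a further COG. A single gene stood far above the rest in each group. After caffeine both of these abundant genes were more than 3-fold lower, the other 5 genes of COG1064 stood higher, and the remaining 5 genes of COG1063 went both ways. All reads of the members together made up 1.38% of counted reads in the untreated library and 0.570% in the caffeine-treated library.

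Levels are given first as the authors' RPKM, which divides by a length and by the library total, with exact Poisson intervals at the 95% level. For the members that length corresponded to 172 to 177 bases under the listed one. HPODL_03666 of COG1064 was the most abundant member, with 166540 counts and 9941 RPKM untreated (9893 to 9989) and 49797 counts and 3190 RPKM after caffeine (3162 to 3218). It ranked 8 among 5325 protein-coding genes in the untreated library and 84 in the caffeine-treated library. HPODL_00988 of COG1063 came next, with 74294 counts and 4008 RPKM untreated (3979 to 4037) and 22564 counts and 1307 RPKM after caffeine (1290 to 1324). These 2 genes kept the first and second place in both libraries, and the RPKM of the first was 2.48 times that of the second without caffeine and 2.44 times with it.

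Below them the order differed between libraries. Without caffeine HPODL_03061 and HPODL_01148, both of COG1063, held the next places at 434 RPKM (425 to 444) and 349 RPKM (340 to 358), and the other genes of COG1064 followed from 240.2 down to 45.9 RPKM. After caffeine HPODL_02528 and HPODL_02410, both of COG1064, held those places at 621 RPKM (609 to 633) and 457 RPKM (447 to 468), while HPODL_03061 stood ninth at 81.8 RPKM (77.4 to 86.3). In the untreated library no 2 neighbours in the order had overlapping counting intervals. In the caffeine-treated library HPODL_01148 at 131 RPKM overlapped HPODL_02406 at 125 RPKM, which overlapped HPODL_02398 at 123 RPKM, and HPODL_04543 at 8.40 RPKM overlapped HPODL_00131 at 7.13 RPKM. The plot of levels by library shows members of nearly equal length spread from 0.74 to 9941 RPKM without caffeine and from 7.13 to 3190 RPKM with it.

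**Figure D1:**
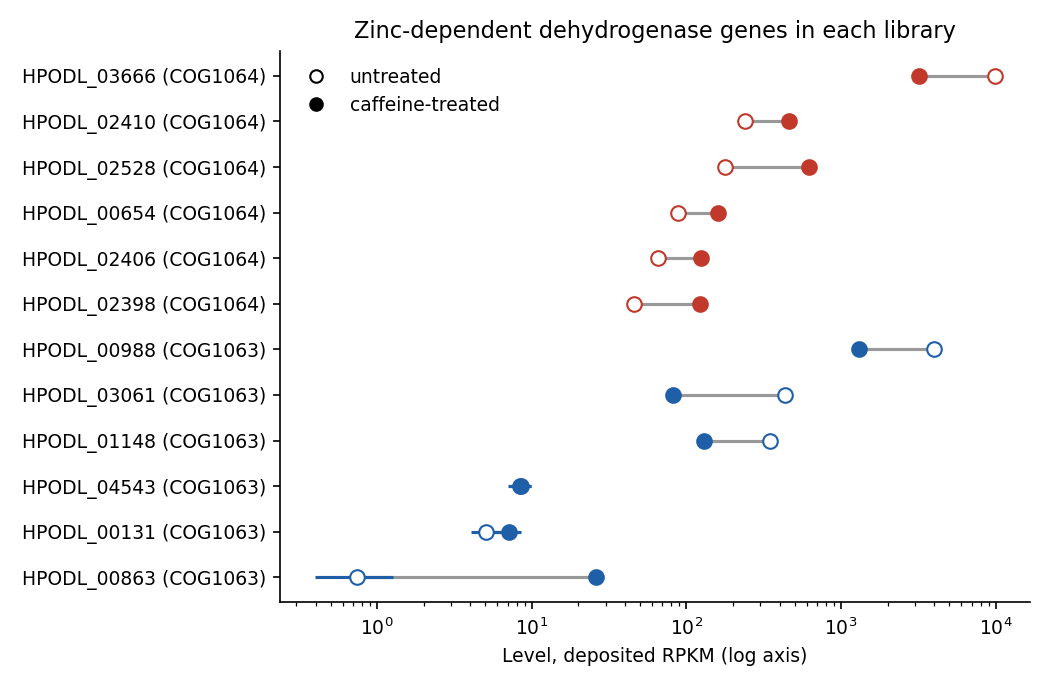
Level of each of the 12 members as deposited RPKM on a log axis, open points for the untreated and filled points for the caffeine-treated library, with exact 95% Poisson intervals where wider than the point. HPODL_03666 moves left from 9941 to 3190, the other 5 COG1064 genes move right, and the COG1063 genes move left except the 3 least abundant, of which HPODL_04543 stays near 8.4.

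Differences between libraries are given as log2 folds of caffeine-treated over untreated counts with the libraries scaled by TMM, a trimmed mean of log ratios, with exact 95% Clopper-Pearson intervals. Intervals here cover counting error only, since amplified reads that carry no molecular identifier may be copies of the same molecule, and cultures were not repeated. A gene was compared when it reached 10 CPM, counts relative to the library total, in either library, which 4861 protein-coding genes and 10 of the 12 members did. Of those 10 members 3 were higher with caffeine by 2-fold or more, and 4 were lower by as much. Among all compared genes these shares were 7.12% higher and 5.27% lower, and since the groups were picked with these folds known, nothing is read from the contrast. At 1.5-fold, 6 members were higher beside 16.5% of all compared genes, and 4 were lower beside 13%. At 4-fold 1 was higher beside 1.38% and 1 lower beside 1.03%. HPODL_00863 passed the filter only through the library where it is high. The median log2 fold of all compared genes was 0.01, or 0.23 with library totals. Scaling by library totals in place of TMM adds 0.22 to every log2 fold, and no compared member changed its sign or its side of the 2-fold limits under it.

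In COG1064 the most abundant gene and the rest went opposite ways. HPODL_03666 went from 9362 to 2595 scaled CPM, 3.61-fold lower, a log2 fold of -1.85 (-1.87 to -1.84). HPODL_02528 had 3301 counts untreated and 10784 with caffeine, and its scaled level went from 186 to 562 CPM. That is a log2 fold of 1.60 (1.54 to 1.66), the highest in the group. HPODL_02398 had 790 and 1976 counts, or 44.4 and 103 scaled CPM, a log2 fold of 1.21 (1.09 to 1.33). These 2 genes were the only ones of the group at least 2-fold higher under TMM.

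The other 3 genes of COG1064 stood close together, all higher with caffeine and all within 2-fold. HPODL_02406, with 1132 and 2023 counts, had a log2 fold of 0.73 (0.62 to 0.83). HPODL_02410, with 4203 and 7460 counts, had 0.72 (0.66 to 0.77), and HPODL_00654, with 1602 and 2695 counts, had 0.64 (0.55 to 0.73). The median over the 6 genes was 0.72, or 0.94 with library totals.

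A difference between the log2 folds of 2 members does not depend on how the libraries are scaled, and it was given a Woolf interval at the 95% level from the 4 counts. HPODL_03666 lay below each other gene of its group by between 2.49 (2.40 to 2.58, against HPODL_00654) and 3.45 (3.39 to 3.51, against HPODL_02528) on the log2 scale. HPODL_02528 stood above HPODL_02398 by 0.39 (0.25 to 0.52). HPODL_02406 differed from HPODL_02410 by 0.01 (-0.11 to 0.13) and from HPODL_00654 by 0.09 (-0.05 to 0.22), within counting error in both cases. Across the groups, HPODL_03666 and HPODL_00988 differed by -0.02 (-0.05 to 0.00), so that counting error covered the difference between the folds of the most abundant genes of each group.

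**Figure D2:**
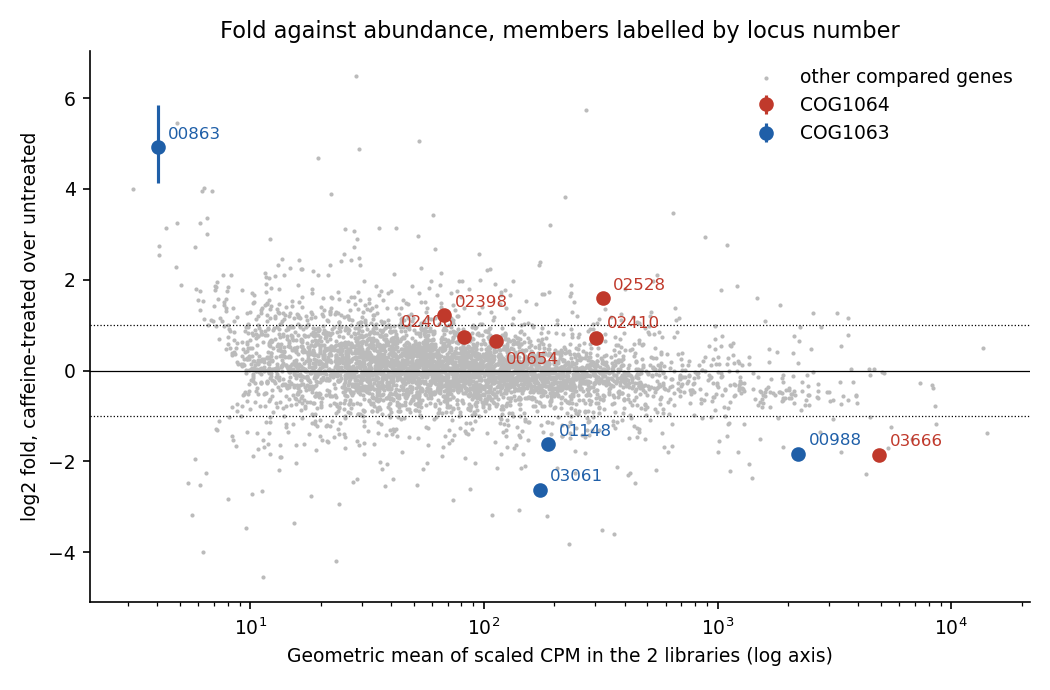
Log2 fold of caffeine-treated over untreated against the geometric mean of scaled CPM on a log axis, with grey points for the 4861 compared genes, red for COG1064 and blue for COG1063, members carrying their locus number and exact 95% intervals. Dotted lines mark 2-fold; the abundant HPODL_03666 and HPODL_00988 lie together at -1.85 and -1.83 at the right, and HPODL_00863 lies at 4.92 at the left.

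The make-up of COG1064 by reads differed between libraries. HPODL_03666 held 93.8% of the group's reads untreated (exact 95% interval 93.7 to 93.9) and 66.6% with caffeine (66.3 to 67.0). HPODL_02528 held 1.86% untreated and 14.4% with caffeine, and HPODL_02410 held 2.37% and 9.98%. Summed over the 5 genes other than HPODL_03666, the scaled level went from 620.0 to 1300 CPM, 2.10 times as much. That increase of 679.8 CPM compares with a decrease of HPODL_03666 by 6767 CPM, and the group as a whole was 2.56-fold lower, at 9982 and 3895 scaled CPM. Per length, HPODL_03666 stood at 16.1 times the summed RPKM of the other 5 genes untreated and at 2.15 times with caffeine.

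**Figure D3:**
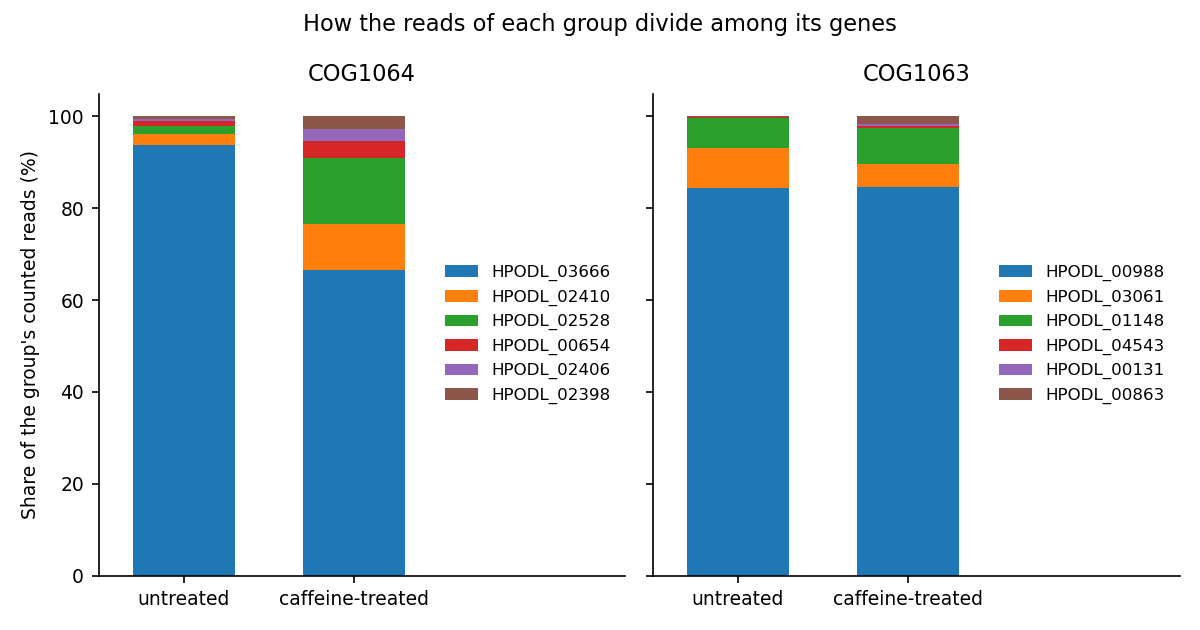
Share of each group's counted reads (%) held by each of its genes, stacked to 100%, in the untreated and the caffeine-treated library. HPODL_03666 takes 93.8% and 66.6% of the COG1064 reads, while HPODL_00988 takes 84.4% and 84.7% of the COG1063 reads.

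In COG1063 the 3 genes with substantial reads were all lower with caffeine. HPODL_00988 went from 4177 to 1176 scaled CPM, 3.55-fold lower, a log2 fold of -1.83 (-1.85 to -1.81). HPODL_03061 had 7649 counts untreated and 1342 with caffeine, or 430.0 and 69.9 scaled CPM. It was 6.15-fold lower, with a log2 fold of -2.62 (-2.70 to -2.54), and ranked 19 from the lowest among the 4861 compared genes. HPODL_01148 had 5879 and 2056 counts, or 330.5 and 107 scaled CPM, a log2 fold of -1.62 (-1.70 to -1.55). HPODL_03061 lay below HPODL_00988 by 0.79 (0.71 to 0.88) and below HPODL_01148 by 1.00 (0.88 to 1.11) on the log2 scale, differences beyond counting error.

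The remaining 3 genes of COG1063 were nearly silent in rich glucose medium without the drug. HPODL_00863 had 13 counts untreated, or 0.731 scaled CPM (0.389 to 1.25, exact Poisson), and 425 with caffeine, or 22.2 scaled CPM (20.1 to 24.4). Its log2 fold was 4.92 (4.13 to 5.84), which is 30.3-fold and the fifth highest of all compared genes. Adding 5 CPM to both libraries brought the log2 fold to 2.24, so that its size rests on the 13 untreated counts. Even with caffeine its level, at 26.0 RPKM, ranked 4304 of 5325 protein-coding genes.

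HPODL_04543 and HPODL_00131 stayed under 10 CPM in both libraries and were not compared. HPODL_04543 had 147 and 136 counts, at 8.46 and 8.40 RPKM, and its log2 fold of -0.22 had an interval that held 0 (-0.57 to 0.12). HPODL_00131 had 89 and 117 counts, at 5.05 and 7.13 RPKM, with a log2 fold of 0.29 (-0.12 to 0.70). A difference in either gene was not detectable at this depth. The median over the 4 compared genes of COG1063 was -1.73, and over all 6 genes, without the filter, it was -0.92.

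In COG1063 the leading gene held nearly the same share in both libraries. HPODL_00988 held 84.4% of the group's reads untreated (84.1 to 84.6) and 84.7% with caffeine (84.3 to 85.1). HPODL_03061 held 8.69% and 5.04%, and HPODL_00863 0.0148% and 1.60%. The summed level of the group went from 4951 to 1388 scaled CPM, 3.57-fold lower.

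The gene table of RefSeq assembly Hansenula_2 was used for gene order only. By that order, 3 of the 6 COG1064 genes, HPODL_02398, HPODL_02406 and HPODL_02410, lie within 25.4 kb, with 4 protein-coding genes between the first of them and the end of the chromosome. The stretch from the first to the last of them was picked for the spacing of these members, after values had been seen, and holds 13 genes. Of its 10 other genes, taken without the CPM filter, 9 had log2 folds above 0, from 0.12 to 5.45, and the median was 1.38. The remaining gene, HPODL_02401, had 39 and 13 counts and stood at -1.69 (-2.72 to -0.76), under 10 CPM in both libraries. Above 0 stood 2482 of all 4861 compared genes under TMM, or 3308 with library totals. Past 2-fold upward were 6 of the 10, the same 6 of the 9 that were compared, beside 7.12% of all compared genes. However, 3 of these 6 reached 10 CPM only in the caffeine-treated library. Among the 6 others that had 10 CPM without caffeine, 3 passed 2-fold upward and the median was 0.89. The stretch was not tested against the rest of the genome.

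The genes between these COG1064 genes are listed in other groups. An amidase group gene (COG0154), HPODL_02402, had 13 counts untreated and 613 with caffeine, a log2 fold of 5.45 (4.67 to 6.37), and a second amidase group gene, HPODL_02404, stood at 1.05 (0.94 to 1.17). HPODL_02409, of the glycine and D-amino acid oxidase group (COG0665), stood at 1.92 (1.82 to 2.02), and HPODL_02400 of the same group at 0.29 (0.16 to 0.42). The COG3774 genes HPODL_02407 and HPODL_02408 stood at 0.12 and 0.73. Directly before HPODL_02398, and 24 bases away, lies a further COG0665 gene, HPODL_02397, at 1.25 (1.03 to 1.48). At the other end, HPODL_02411 beside HPODL_02410 stood at -0.09, with an interval that held 0 (-0.29 to 0.11). HPODL_02405, known only by a NOG identifier, ends 12 bases before HPODL_02406 and stood at 2.47 (2.26 to 2.68) against 0.73 for the COG1064 gene. Reads over such short gaps could count for either gene, and how overlaps were counted is not given in the sources used here.

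**Figure D4:**
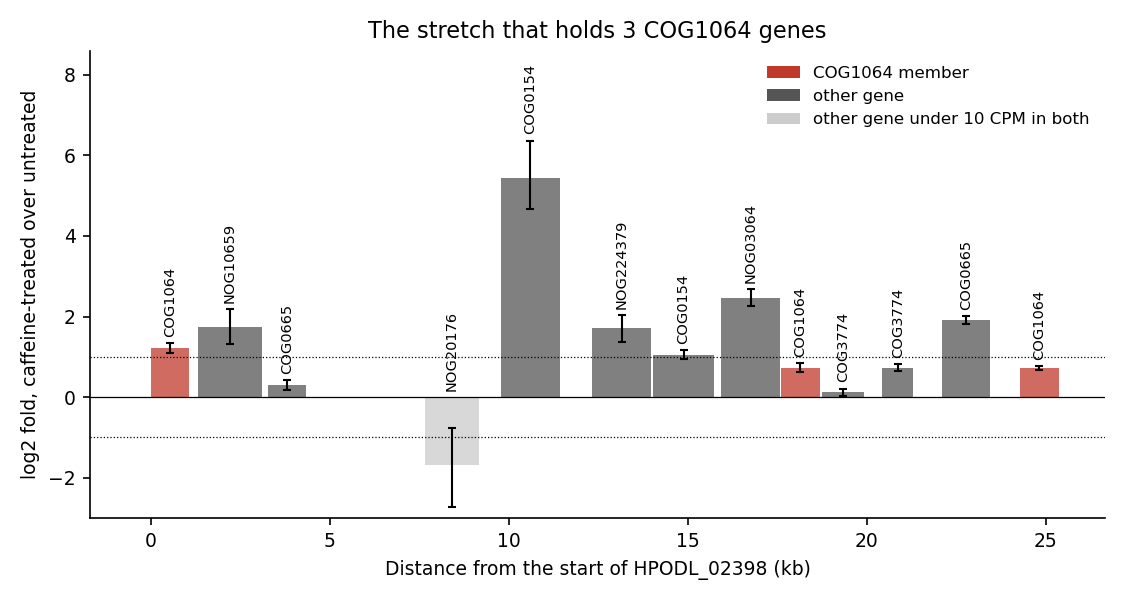
Log2 fold of each of the 13 genes of the stretch that holds HPODL_02398, HPODL_02406 and HPODL_02410, against distance in kb from the start of the first, each bar as wide as its gene and marked with its COG or NOG identifier, with exact 95% intervals. The 3 COG1064 genes, in red, lie between 0.72 and 1.21, and HPODL_02402 stands highest at 5.45.

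In COG1063 the 3 sparsely read genes each lie directly beside a gene of the short-chain dehydrogenases, a separate family without catalytic zinc that also acts on alcohols and polyols, and no COG1064 gene does. There were 20 genes of the 3 short-chain groups searched (COG0300, COG1028 and COG4221) in the table. HPODL_00864 (COG4221), beside HPODL_00863, had 68 and 185 counts, a log2 fold of 1.33 (0.93 to 1.76). HPODL_04542 (COG1028), beside HPODL_04543, had 27 and 15 counts, and HPODL_00132 (COG1028), beside HPODL_00131, had 53 and 22. The last 2 stayed under 10 CPM in both libraries.

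Enzymes of the same route and of neighbouring families are given by lists of COGs. Each list stands beside all 4861 compared genes, of which 7.12% were at least 2-fold higher and 5.27% lower. With library totals 564 of the 4861 were at least 2-fold higher and 175 lower. Of 14 genes in groups around acetaldehyde and acetate, 3 passed 2-fold upward and 1 downward, or 4 and 1 with library totals. Under TMM 10 lay within these limits, and the median log2 fold of the 14 was 0.22. The lowest was HPODL_04375, a pyruvate decarboxylase group gene (COG3961), whose enzyme makes the acetaldehyde that alcohol dehydrogenase reduces. It had 203097 and 77228 counts, a log2 fold of -1.50 (-1.52 to -1.49), beside -1.85 for HPODL_03666. Next lowest was another gene of that group, HPODL_00937, at -0.72 (-0.99 to -0.45). The highest were aldehyde dehydrogenase group genes (COG1012), which oxidise aldehydes to acids: HPODL_00573 at 1.77 (1.74 to 1.81), with 9926 and 36599 counts, and HPODL_03486 at 1.43 (1.25 to 1.60). All 3 genes past 2-fold upward, and all 4 with library totals, were of COG1012, which has 8 genes. Under TMM 6 of the 8 were above 0, beside 2482 of the 4861 compared genes, and none was 2-fold lower. Above 0 with library totals were 7 of the 8, beside 3308 of the 4861. Which aldehyde each of the 8 acts on is not known.

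Of 14 glycolysis genes 12 passed 2-fold downward, beside 5.27% of all compared genes, and 1 upward, beside 7.12%. With library totals 8 passed downward, beside 175 of the 4861 compared genes. The median of the 14 was -1.38. The lowest of the 14 was a phosphofructokinase (COG0205), HPODL_00776, at -2.37 and then a hexokinase (COG5026), HPODL_04936, at -2.28. The highest were a sparsely read hexokinase group gene, HPODL_04428, at 1.76 and glucose-6-phosphate isomerase (COG0166), HPODL_01256, at -0.46. HPODL_04428, with 68 and 249 counts, passed the filter only through the library where it is high.

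Lists of other oxidoreductases held genes on both sides. Other medium-chain dehydrogenases had 5 genes, of which 4 were compared, all within 2-fold. The gene that was not compared, HPODL_05064 (COG0604), had 185 and 43 counts, a log2 fold of -2.21 (-2.73 to -1.73). The highest was HPODL_02554, of the class III alcohol dehydrogenase group (COG1062), which in methylotrophic yeasts oxidises formaldehyde bound to glutathione. It had 8902 and 17324 counts, a log2 fold of 0.85 (0.81 to 0.89), or at least 2-fold higher with library totals. The quinone reductase type genes (COG0604) HPODL_02149, HPODL_00540 and HPODL_03289 stood at 0.59, -0.05 and -0.17. No gene of the table was listed under the iron-type alcohol dehydrogenases (COG1454).

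Of 15 aldo/keto reductase genes 13 were compared, of which 3 passed 2-fold upward and 1 downward, and the median was 0.49. These counts were 4 and 1 with library totals, where the median was 0.71. The extremes were HPODL_03756 at 2.72 and HPODL_01370 at 1.69, and HPODL_04956 at -1.70 and HPODL_03784 at -0.89, all of COG0656. The 2 genes left out include HPODL_00887, with 14 and 113 counts and a log2 fold of 2.90 (2.10 to 3.82). Of the 20 short-chain dehydrogenases 11 were compared, and 4 of these passed 2-fold upward and 2 downward, or 5 and 2 with library totals. Their extremes were HPODL_03552 at -2.86 and HPODL_02352 at -1.79, and HPODL_05083 at 1.35 and HPODL_00206 at 1.505, all of COG1028. Only through the caffeine-treated library, where they are high, did 2 genes pass the filter, HPODL_05083 and HPODL_00864 (1.33). Both are among the 4 past 2-fold upward under TMM. Of the 9 that were not compared 2 stood at least 2-fold higher and 2 lower, with at most 154 counts in a library. The median of the compared genes, -0.08, turned to 0.13 with library totals, where that of all compared genes was 0.23.

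Of 7 polyol and glycerol genes other than the members 6 were compared. Of these 2 were at least 2-fold lower, or 1 with library totals, and none was 2-fold higher. Glycerol kinase type HPODL_03444 (COG0554) stood at -1.26 (-1.32 to -1.19) and the FAD type glycerol-3-phosphate dehydrogenase HPODL_00581 (COG0578) at -1.02 (-1.06 to -0.99). The NAD type HPODL_03357 (COG0240) was at 0.18 and a dihydroxyacetone kinase, HPODL_01039 (COG2376), at 0.13. The gene that was not compared, HPODL_04538, also of COG2376, had 113 and 15 counts, a log2 fold of -3.02 (-3.91 to -2.24), under 10 CPM in both libraries. Of 6 genes in groups that hold threonine enzymes, 1 was at least 2-fold lower and none higher. Of the 6, 3 belong to COG0156, a group that also holds enzymes of heme and sphingolipid synthesis, so that the list does not stand for threonine breakdown. Its lowest were a threonine aldolase, HPODL_00754 (COG2008), at -1.30 and a threonine dehydratase type gene, HPODL_01769 (COG1171), at -0.35, and its highest the other aldolase, HPODL_01738, at 0.38 and HPODL_04865 (COG0156) at 0.12. The medians of the polyol list and of these 6 genes, -0.08 and -0.13, turned to 0.14 and 0.09 with library totals. The median of all compared genes was 0.01 under TMM and 0.23 with library totals.

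**Figure D5:**
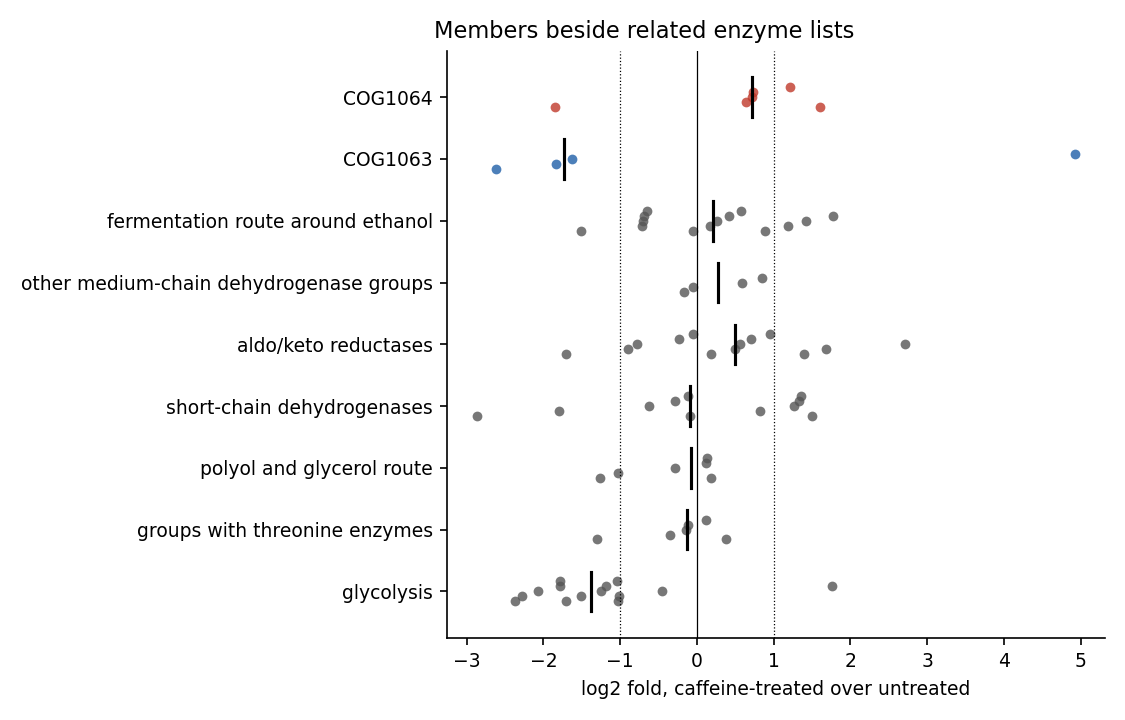
Log2 fold of caffeine-treated over untreated for each compared gene of COG1064 (red), COG1063 (blue) and the related enzyme lists (grey), with a bar at each median and dotted lines at 2-fold. The medians are 0.72 for COG1064, -1.73 for COG1063 and -1.38 for glycolysis.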

How the data were processed

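RNA was extracted with hot phenol and sequenced from stranded mRNA libraries as paired reads of 100 bases, per the labels' protocols. Bowtie2 was used, per the submitters' processing notes. Its version, the counting tool and the genome build were not given in the sources used here. The authors deposited raw counts, RPKM values, and a scaled signal (counts times 1 constant per library, by RLE or by TMM). Per the file headers, RPKM is per gene and library. For the members it corresponded to the column total and a length 172 to 177 bases under the listed one.

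TMM factors for the authors' deposited counts came from edgeR 4.0.16 (R 4.3.3), giving effective totals of 17788292 and 19186645. Ratios, intervals and lists were computed with Python 3.11.15 and scipy 1.17.1. A count of 0 would have been set to 3 counts, which no member needed. DESeq2 1.42.0 size factors served as an alternative scaling. The calculation was run on simulated counts with Poisson noise only. That run cannot show how the intervals fare with duplicate reads or differences between cultures. Locus tags of all 5408 features matched assembly Hansenula_2. Its gene table gave biotype and gene order.

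Members and lists were chosen with earlier results of these data known, and COG functions come from general knowledge. Named genes were all members, most of their nearest neighbours, and up to 2 highest and 2 lowest compared genes of each list. Some listed genes that were not compared are named too, outside this rule. Other genes named in the stretch were picked afterwards. Protein identity between members was not analysed here, and whether any members are alike enough to share reads was not tested.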

Additional observations from a re-analysis of the deposited data

How the results depend on the processing

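None of the 12 members reversed its sign under library totals, DESeq2 size factors, deposited RPKM ratios, no filter or 5 added CPM, although HPODL_04543, whose interval holds 0, came to -0.0033 with library totals. The counts of members past 2-fold were the same under all 5. The median log2 fold of COG1064 was 0.94 with library totals and 0.93 with RPKM ratios. That of COG1063 was -1.51 with library totals, -1.52 with RPKM ratios, -0.92 with no filter, which adds 2 sparsely read genes, and -1.62 without its most abundant member. With a 1.5-fold rule 6 members, 5 of them COG1064, were higher, beside 16.5% of all compared genes. Lower by this rule were 4 members, 1 of COG1064 and 3 of COG1063, beside 13%. With a 4-fold rule 1 member was higher (0 of COG1064), beside 1.38% of all, and 1 lower (0 of COG1064, 1 of COG1063), beside 1.03%. By RPKM in place of reads, HPODL_03666 held 94.2% of COG1064 untreated and 68.2% with caffeine, and HPODL_00988 83.4% and 83.7% of COG1063. No paired analysis was possible because each group has 1 library. Depth limits the 3 sparsely read COG1063 genes most.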

Other observations

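The nearest neighbours of the members outside the stretch were read as values. Both neighbours of the abundant HPODL_03666 were lower, HPODL_03665 at -1.35 (-1.42 to -1.28) with 5094 and 2156 counts and HPODL_03667 at -1.11 (-1.48 to -0.75) with 192 and 96 counts. HPODL_03667 came to -0.89, within 2-fold, with library totals. It lies 74 bases from HPODL_03666, and whether reads of that gene were counted for it was not tested. Of the neighbours of HPODL_00988, HPODL_00989 stood at -2.93 (-3.18 to -2.70) and HPODL_00987 at 0.10 (0.01 to 0.19). HPODL_00862, beside HPODL_00863, had 863 and 3691 counts, a log2 fold of 1.99 (1.88 to 2.10).

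HPODL_00130, beside the sparsely read HPODL_00131, had 1621 counts untreated and 299 with caffeine, a log2 fold of -2.55 (-2.73 to -2.37). The neighbours of HPODL_03061, the lowest member, stood at 0.03 for HPODL_03060 and 0.11 for HPODL_05361, both with intervals that held 0. Those of HPODL_01148 stood at -0.55 for HPODL_01147 and -0.43 for HPODL_01149. Those of HPODL_02528 stood at 0.32 for HPODL_02527 and 0.58 for HPODL_02529, and those of HPODL_00654 at 1.03 for HPODL_00653 and 0.70 for HPODL_00655. Outside the stretch, the 8 compared neighbours of COG1064 genes had a median of 0.45. Of these 8, 2 passed 2-fold upward and 2 downward, beside 7.12% and 5.27% of all compared genes. With library totals, 2 passed upward and 1 downward, beside 564 and 175 of the 4861 compared genes. The 10 of COG1063 genes had a median of 0.07, with 2 and 2 under both scalings. Of the neighbours past 2-fold under TMM, HPODL_03667 and HPODL_00989 reached 10 CPM only in the untreated library. HPODL_00864 reached it only in the caffeine-treated library. The genes known only by NOG identifiers have no function named in the tables.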
